A study of Mus musculus with 20 samples.

Results

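The transcript uc007fhi.1 was followed through every library that lists it, 16 of the 20 libraries of a study of ribosome composition in mouse embryonic stem cells. It is 1 of 9498 transcripts in the series. It was selected on its measured ratios of RPKM between FLAG capture and total ribosomes, which were high in both FLAG-tagged lines. The files identify transcripts by UCSC identifier only, and 0 of the 9498 identifiers matched the reference tables at hand. The gene, its position, its sequence and its function are therefore not given here, and the markers of pluripotent cells could not be looked up.

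All libraries came from E14 cells, a pluripotent mouse line, given 100 µg/ml cycloheximide, an inhibitor of translation elongation, for 1 min before harvest. The footprint libraries came from cells with 1 tagged allele of a ribosomal protein gene at its own locus, either 3xFLAG-Rpl10a or Rps25-3xFLAG, and each line gave 2 total libraries (all ribosomes pelleted through sucrose, no antibody) and 2 IP libraries (ribosomes immunoprecipitated on anti-FLAG beads). The other allele stayed untagged, so the capture took only ribosomes that carried the tagged copy, and the labels do not say whether a line was 1 clone. The RNA-seq libraries came from wild-type cells transfected with a control siRNA or with 1 siRNA against Rpl10a. For each siRNA, 2 libraries covered a heavy pool of sucrose gradient fractions (at least 4 ribosomes per mRNA) and 2 a light pool of all other fractions, from free RNA-protein particles and subunits to polysomes of 2 to 3 ribosomes, and the labels describe the RNA as depleted of rRNA. The level of Rpl10a was not checked, for want of gene names.

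Ribosome profiling sequences the mRNA fragments that ribosomes shield from RNase, so the density of fragments on a transcript reflects how many ribosomes sit on it. RPL10A belongs to the large and RPS25 to the small ribosomal subunit, and capturing ribosomes through a tag on one of them asks whether ribosomes that hold this protein carry a different set of mRNAs. In polysome gradients, mRNAs with more ribosomes sediment further, so the heavy and light pools separate mRNAs by ribosome load.

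Footprint values are RPKM (reads scaled by transcript length and by library size) as the authors deposited them. A Ribo-Seq library of these lines summed to between 1082511 and 1125549 RPKM. An RNA-seq library summed to between 943664 and 1067209 of its deposited RPM units (by their name, scaled by library size and not by length). Read depth is unknown, since the deposited values hold no counts, and values are rounded to 1 decimal. Nothing in the labels says that the 2 libraries of a group were separate cultures, so their spread may be technical.

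In the Rpl10a line, uc007fhi.1 stood at 17.4 and 14.1 RPKM in the total libraries and at 65.5 and 106.8 RPKM in the RPL10A IP libraries. Both IP values lay above both total values, with the second IP library well above the first. Means were 15.8 ± 2.33 and 86.2 ± 29.2 RPKM (SD, n = 2 each), and the IP mean was 5.47 times the total mean. Taking each IP library over each total library, the fold ran from 3.76 to 7.57. On the log2(RPKM + 1) scale the difference was 2.34 (SE 0.25), rank 4 from the highest of 8505 transcripts, where the median difference was 0.00. The 3 transcripts above it had mean total values of 0.15 to 4.6 RPKM, so uc007fhi.1 was by far the most abundant of the 4 in total ribosomes. Groups with all IP values above all total values were common in this table, at 28% of transcripts. These ratios chose the transcript and are given as a description with no test.

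The Rps25 line gave lower values throughout and a larger ratio of IP mean to total mean. The total libraries stood at 3.5 and 4.5 RPKM and the RPS25 IP libraries at 29.6 and 34.3 RPKM. Again the groups did not overlap, as for 27.9% of transcripts in this table with IP above total. Means were 4.00 ± 0.71 RPKM in total and 32.0 ± 3.32 RPKM in IP libraries (SD, n = 2 each), an IP mean 7.99 times the total mean, with a range of 6.58 to 9.80 over the single pairs of libraries. The log2(RPKM + 1) difference of 2.72 (SE 0.20) was the highest of 8779 transcripts. It became 2.04 with a pseudocount of 5 in place of 1, since the total values are small. Every transcript of this table reached at least 5.1 RPKM in some library and both total values of uc007fhi.1 lay under that, so its row is in the table through the IP libraries alone, and it had to differ for that reason too.

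**Figure D1:**
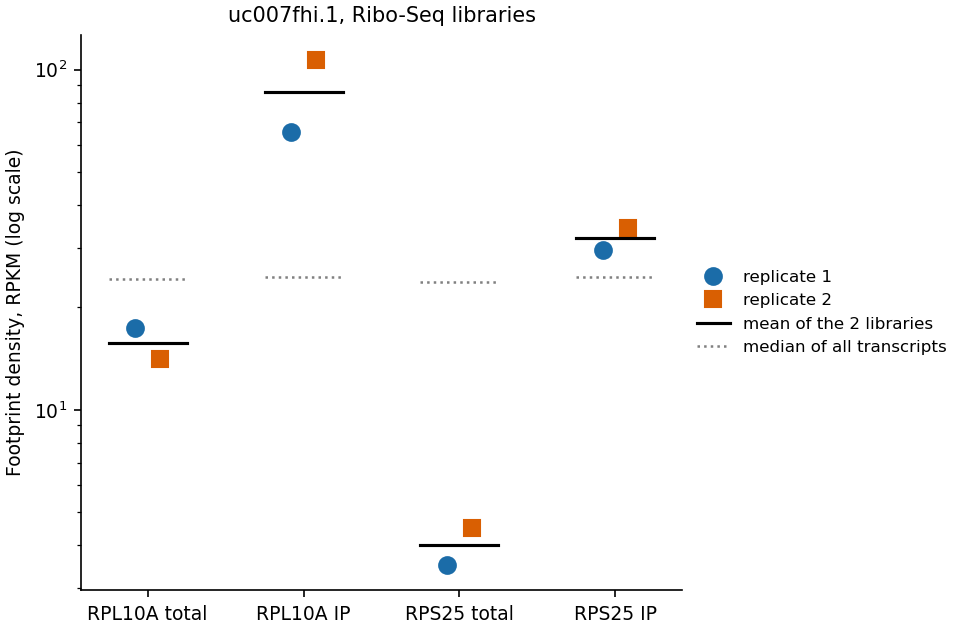
Footprint density of uc007fhi.1 in RPKM (log axis) in the 8 Ribo-Seq libraries of the FLAG lines, with circles for replicate 1, squares for replicate 2, black bars for the group mean and dotted bars for the median of all transcripts (mean of the 2 libraries' medians). Both IP groups lie above their totals, and the Rps25 line lies below the Rpl10a line in total and in IP.

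The values put the 4 groups in an order. RPL10A IP (65.5 to 106.8 RPKM) was highest, then RPS25 IP (29.6 to 34.3). The total libraries of the Rpl10a line (14.1 to 17.4) came next and those of the Rps25 line (3.5 to 4.5) last. The lines were normalized separately, and how many of all transcripts keep such an order across lines was not counted. Within its library, the transcript moved from the 40.9th and 34.3rd percentile of all transcripts in the Rpl10a totals to the 74.3rd and 83.3rd in the RPL10A IP. From the Rps25 totals to the RPS25 IP it moved from the 1.70th and 4.10th percentile to the 55.1st and 59.2nd.

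Both FLAG captures thus held the transcript above the middle of the abundance range, from starting levels that differed between the lines. The total mean was 3.94 times as high in the Rpl10a line as in the Rps25 line, a log2(RPKM + 1) difference of 1.74, and of the 8090 transcripts listed for both lines only 1 differed more in that direction. All transcripts had a median difference of 0.02 and an SD of 0.28. Between the IP groups the difference was 1.37, with 16 transcripts further out. Each line has its own table with its own normalization, so no test is given, and line and preparation cannot be told apart. The same total and IP values also enter the ratios that chose the transcript, so both ranks are a description.

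Of the 8090 transcripts in both tables, uc007fhi.1 was the only one with a log2 difference of at least 2 in each capture, and 19 had at least 1 in each. Its RPL10A difference minus its RPS25 difference was −0.38. That is at the 14.3rd percentile of all transcripts, whose median was −0.02. With a pseudocount of 1 the larger difference was thus that of RPS25. With a pseudocount of 5 it was that of RPL10A, at 2.10 against 2.04, so the order is not settled. The folds over single pairs of libraries also overlapped (3.76 to 7.57 for RPL10A and 6.58 to 9.80 for RPS25).

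**Figure D2:**
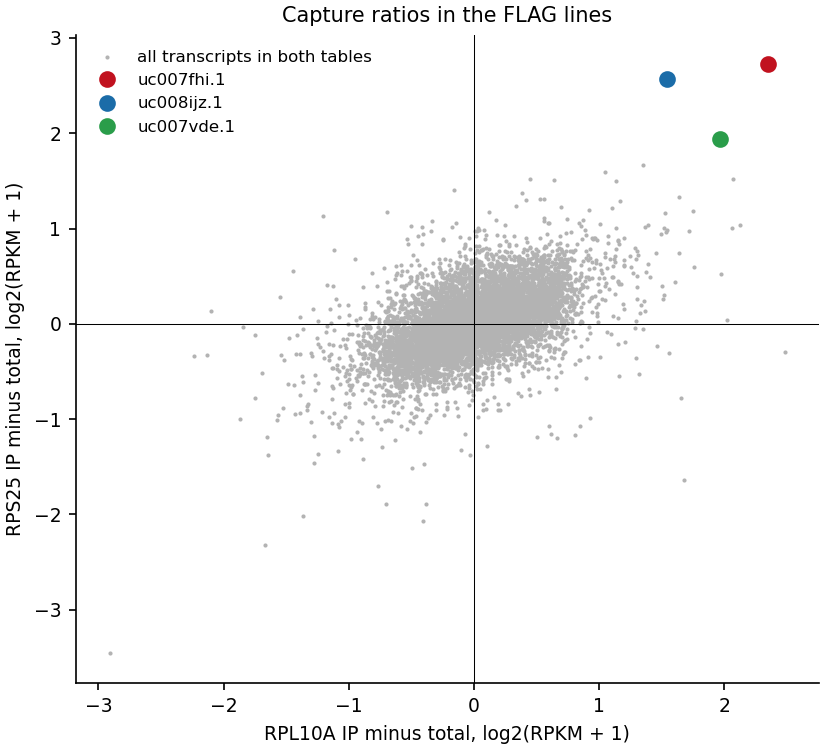
IP minus total on the log2(RPKM + 1) scale, RPL10A (x axis) against RPS25 (y axis), for the 8090 transcripts in both FLAG tables, each point 1 transcript. uc007fhi.1 (2.34 and 2.72), uc008ijz.1 (1.54 and 2.57) and uc007vde.1 (1.96 and 1.94) lie apart from the cloud at the upper right. uc007fhi.1 was selected on these ratios, and the other 2 were picked after their values had been seen, so their place is a description.

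The RPL22 capture, a further capture through an HA tag, is not analysed here, as the table used for that line holds no row for uc007fhi.1. The same was true of 441 of the 7704 transcripts listed in the 2 FLAG tables and the RNA-seq table.

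RNA-seq of the gradient pools, which played no part in choosing the transcript, showed a different picture. Here the values followed the replicate number far more than the pool or the siRNA. Replicate 1 read 9.5 RPM in the light and 10 in the heavy pool with control siRNA, and 14.1 and 14.7 with Rpl10a siRNA. Replicate 2 read 0.6 and 0.8 with control siRNA, and 0.4 and 0.3 with Rpl10a siRNA. All 4 libraries numbered 1 were thus above all 4 numbered 2, with means of 12.1 and 0.53 RPM over the 4 groups.

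Within each group the first library exceeded the second 15.8-fold (control light), 12.5-fold (control heavy), 35.3-fold (Rpl10a light) and 49.0-fold (Rpl10a heavy). Rounding to 1 decimal leaves the smallest of these between 11.7 and 13.4 and the largest between 41.9 and 59.0. No deposited table gives the reads behind 0.3 RPM, so counting error on these folds is unknown. In rank, the transcript lay at the 7.50th to 15.3rd percentile of the libraries numbered 1, and in those numbered 2 it was among the lowest 18 of 8084 transcripts, with 3 or 4 transcripts, itself included, at or below its value in 3 of the 4. In bulk libraries, fewer cells with the transcript and less of it per cell cannot be told apart. Every transcript of the RNA-seq table reached at least 2 RPM in some library, and all values of uc007fhi.1 numbered 2 lay under that. Its row is thus there through the libraries numbered 1 alone, and an excess in at least 1 of them had to follow.

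Averaged over the 4 groups, the difference between replicate 1 and 2 was 3.09 on the log2(RPM + 1) scale, second of 8084 transcripts. As the row is listed through the libraries numbered 1, the direction was fixed in part, and the rank is a description. All transcripts had a median of 0.00 and an SD of 0.26. A difference of at least 10-fold in all 4 groups was found for 2 transcripts, uc007fhi.1 and uc008ijz.1, and of at least 4-fold for 4. No transcript was at least 4-fold higher in replicate 2 in all 4 groups. The 2 RNA-seq libraries of a group otherwise differed little, with a median absolute log2 difference of 0.13 to 0.24 per group. These thresholds and the identifier uc008ijz.1 were picked after the values had been seen.

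**Figure D3:**
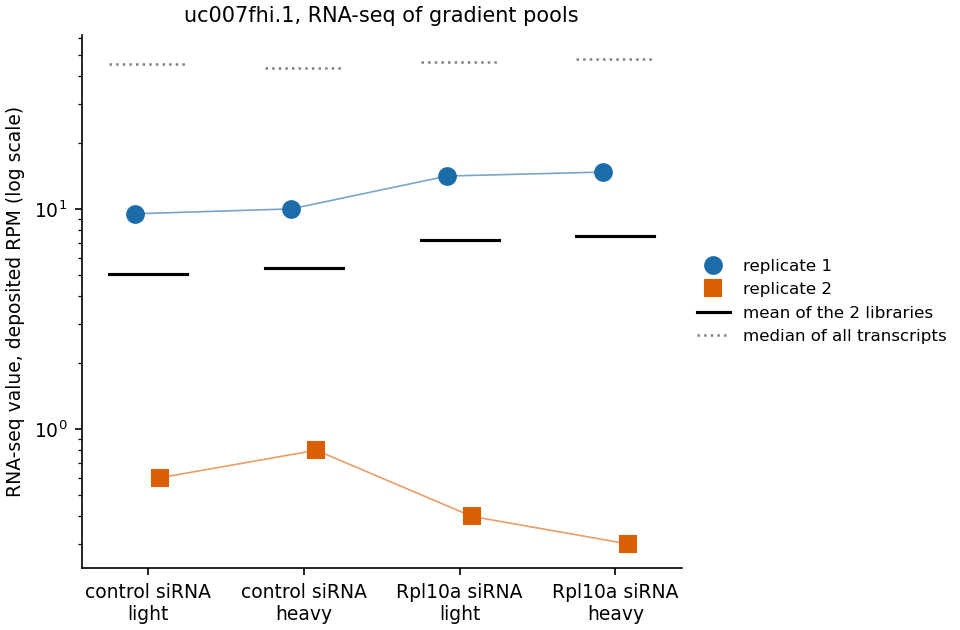
RNA-seq value of uc007fhi.1 in deposited RPM (log axis) in the 8 gradient-pool libraries, with circles for replicate 1, squares for replicate 2, black bars for the group mean and dotted bars for the median of all transcripts. Thin lines join libraries with the same replicate number, 9.5 to 14.7 RPM for number 1 and 0.3 to 0.8 RPM for number 2.

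Against this spread the comparisons of pools and siRNAs, in a fit without a replicate term, could not show a difference for uc007fhi.1. Group means were 5.05 ± 6.29 RPM (control light), 5.4 ± 6.51 (control heavy), 7.25 ± 9.69 (Rpl10a light) and 7.50 ± 10.2 (Rpl10a heavy; SD, n = 2 each), and every pair of groups overlapped. Of all transcripts, 80.4% and 74.3% had no overlap between heavy and light pools (control and Rpl10a siRNA), and 74.1% and 61.5% none between siRNAs (heavy and light pool). The SD within groups on the log2 scale was 2.20, second highest of 8084 transcripts, against a median of 0.15.

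The first of these comparisons set the heavy pool against the light pool. Heavy minus light was 0.12 on the log2(RPM + 1) scale with control siRNA (SE 1.53, 95% interval −3.38 to 3.62, limma adjusted p = 0.953) and −0.03 with Rpl10a siRNA (SE 1.53, interval −3.53 to 3.48, limma adjusted p = 0.990). In the same comparisons 54.4% and 53.7% of all transcripts were called at an adjusted p below 0.05. Library by library, heavy over light was 1.05 and 1.33 with control siRNA (replicates 1 and 2) and 1.04 and 0.75 with Rpl10a siRNA. Each pool was scaled to its own library, so a ratio sets the transcript against the others of the pool and does not give the division of its molecules. The median transcript had 0.984 and 0.969 with control siRNA (replicates 1 and 2) and 1.17 and 1.08 with Rpl10a siRNA. With values of 0.3 and 0.4 RPM, rounding alone allows the last fold to lie between 0.56 and 1.00.

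The next question was whether knockdown of Rpl10a changed its amount in either pool. Rpl10a minus control siRNA was 0.02 in the heavy pool (SE 1.53, interval −3.48 to 3.52, limma adjusted p = 0.992) and 0.17 in the light pool (SE 1.53, interval −3.34 to 3.67, limma adjusted p = 0.965). Calls were made for 49.5% of all transcripts in the heavy and 6.12% in the light pool. The replicates went opposite ways: in replicate 1 the Rpl10a siRNA value was 1.47 times the control in the heavy and 1.48 times in the light pool, and in replicate 2 it was 0.375 and 0.667 times. The median transcript had 1.00 (heavy) and 1.01 (light) in replicate 1, and 1.02 and 1.01 in replicate 2. In replicate 1, 73.3% (heavy) and 95.9% (light) of transcripts lay at or below the fold of uc007fhi.1, and in replicate 2, 0.173% and 7.52%. The heavy-pool ratio of 0.375 in replicate 2 rests on 0.3 against 0.8 RPM.

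The polysome shift, heavy minus light with Rpl10a siRNA less the same with control siRNA, was −0.14 (SE 2.17, interval −5.10 to 4.81, limma adjusted p = 0.969), where 6.43% of all transcripts were called. That share was unstable, as the 520 calls became 2520 with the replicate block and 0 without a variance trend. Replicate 1 alone gave −0.01 and replicate 2 alone −0.28, both without a test. These intervals come from a fit without a replicate term, and the values do not show that the transcript stayed in place. With a replicate block, which no label calls for, the interval of the shift was −0.84 to 0.55. Again there was no call (limma adjusted p = 0.759). The blocked intervals of heavy minus light were −0.37 to 0.61 (control siRNA) and −0.52 to 0.46 (Rpl10a siRNA). Those of the knockdown were −0.47 to 0.51 (heavy pool) and −0.32 to 0.66 (light pool), also with no call.

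Transcripts whose pattern is most like that of uc007fhi.1 were sought over its 16 libraries, by Pearson's r of log2(value + 1) with each table's mean removed. The search covered 5859 transcripts with a mean of at least 10 in each table. uc007fhi.1 itself, with an RNA-seq mean of 6.3 RPM, did not meet this minimum and was exempt from it. The highest were uc008ifp.1 (r = 0.854) and uc007wto.2 (r = 0.847), 8 reached 0.8, and the median r was −0.01. Neither led on the Ribo-Seq libraries alone (ranks 215 and 125 of 6220) or on the RNA-seq libraries alone (ranks 42 and 19 of 7464). Both mostly followed the directions of uc007fhi.1, with smaller steps. The log2 difference of uc007wto.2 was 0.59 in the RPL10A and 0.65 in the RPS25 capture, and its RNA-seq values ran from 30.7 to 68.5 RPM in replicate 1 and from 11.4 to 21.5 RPM in replicate 2. The corresponding capture differences of uc008ifp.1 were 0.22 and 0.57. As the 16 points share libraries, depth and the captures that chose the transcript, r is a description.

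**Figure D4:**
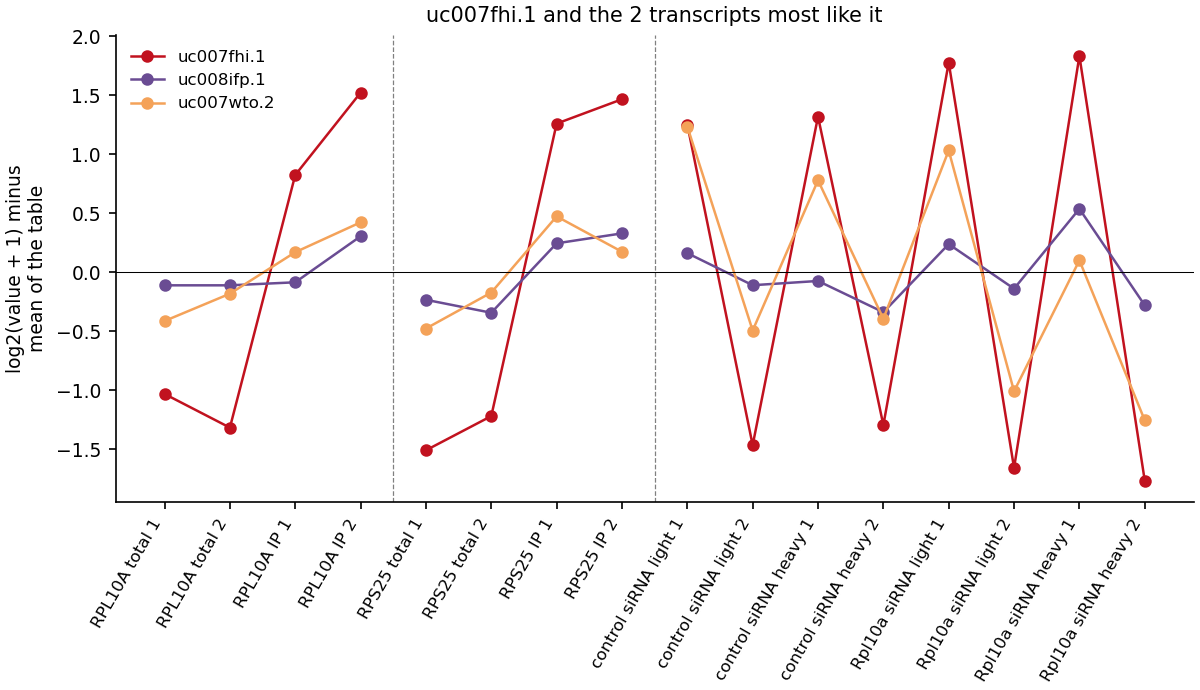
log2(value + 1) minus the transcript's mean in that table, for uc007fhi.1, uc008ifp.1 and uc007wto.2 in the 16 libraries (dashed lines part the tables of the Rpl10a line, the Rps25 line and RNA-seq). The 3 lines rise and fall together in most libraries, and uc007fhi.1 has the widest swings in the captures and in RNA-seq. The other 2 had the highest r only among transcripts with a mean of at least 10 in each table, a level that uc007fhi.1 does not reach in RNA-seq.

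Lifting the minimum level left 7703 transcripts and gave closer matches, 4 of them with r of at least 0.9. In order these were uc008rwm.2 (r = 0.959), uc007pcp.1 (r = 0.958), uc007vde.1 (r = 0.953) and uc008ijz.1 (r = 0.952). The last 2 were singled out for description after their values had been seen. The closer matches uc008rwm.2 and uc007pcp.1 were not among the 10 transcripts with the largest mean RNA-seq difference, replicate 1 minus 2. In the Rpl10a line uc008ijz.1 stood at 4.6 and 4.9 RPKM in total and 10 and 24.4 in IP libraries, and in the Rps25 line at 1.0 and 1.2, and 9.2 and 14.2. For uc007vde.1 the values were 5.7 and 6.4, and 17.1 and 40.7, in the Rpl10a line, and 3.1 and 2.9, and 13.8 and 14.9, in the Rps25 line. Each had, like uc007fhi.1, IP values above total values in both lines, lower group means in the Rps25 line and the second RPL10A IP library above the first. Every transcript listed for either line reached at least 5.1 RPKM in some library of that line. The totals of uc008ijz.1 in both lines and of uc007vde.1 in the Rps25 line lay under that. Those rows are there through the IP libraries alone, so an IP value above total had to follow.

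In RNA-seq these 3 transcripts held the 3 largest mean differences between replicate 1 and 2 of all 8084, at 3.41 (uc008ijz.1), 3.09 (uc007fhi.1) and 2.48 (uc007vde.1), ahead of the next at 2.15. In the RPS25 capture they were first (uc007fhi.1), second (uc008ijz.1) and at rank 4 (uc007vde.1) of 8779, and in the RPL10A capture at ranks 4, 40 and 17 of 8505. The other 7 of the 10 transcripts with the largest replicate difference had log2 capture differences from −1.55 to 0.59 in the RPL10A and from −0.59 to 0.65 in the RPS25 capture, so some of them were lower in IP than in total. A log2 capture difference of at least 1 was found in 1.89% (RPL10A) and 0.571% (RPS25) of the transcripts that were also in the RNA-seq table. uc008ijz.1 and uc007vde.1 were matched to uc007fhi.1 over these same libraries and picked after their values had been seen. Their shared high ranks thus restate that choice in part and are a description. Whether the replicate difference in RNA-seq and the capture ratios have a common source was not tested.

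**Figure D5:**
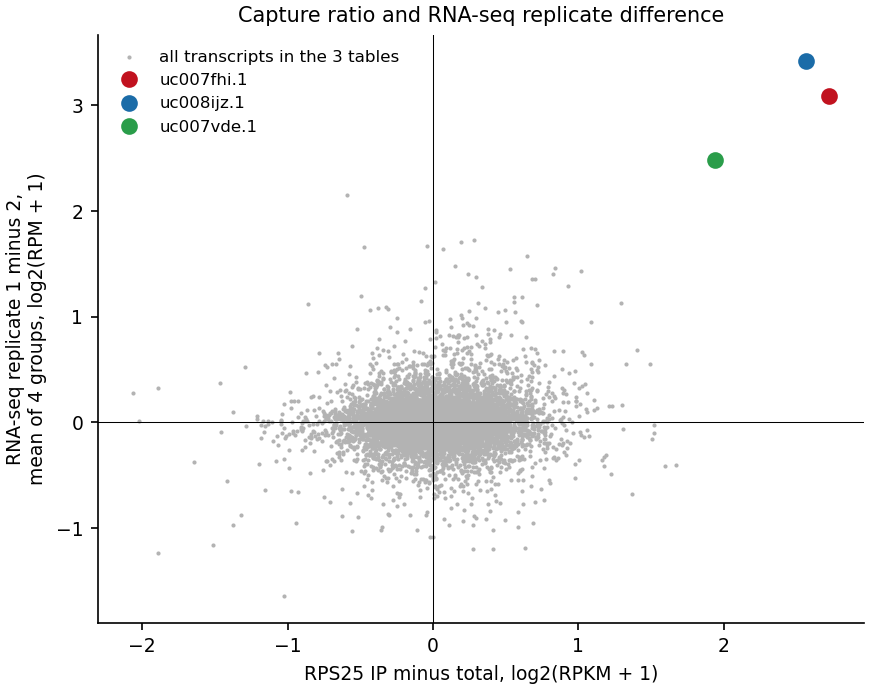
RNA-seq replicate 1 minus replicate 2, mean of the 4 groups on the log2(RPM + 1) scale (y axis), against the RPS25 capture difference on the log2(RPKM + 1) scale (x axis) for 7704 transcripts, each point 1 transcript. uc007fhi.1, uc008ijz.1 and uc007vde.1 lie alone at the upper right, at 2.48 to 3.41 on the y axis and 1.94 to 2.72 on the x axis. uc008ijz.1 and uc007vde.1 were picked after their values had been seen.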

How the data were processed

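The authors deposited RPKM values per transcript for each Ribo-Seq library, per the file headers. For the RNA-seq libraries the authors deposited a signal that the file headers call RPM. Its column sums over the listed transcripts differ (943664 to 1067209), so it was treated as a scaled signal. Whether a filter on transcripts or a further factor made the sums differ is unknown. Cutadapt, Bowtie2 and, for RNA-seq, STAR were used with the mm10 build, per the submitters' processing notes. Versions and transcript filters: not given in the sources used here.

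Groups follow the sample titles. limma 3.58.1 (R 4.3.3; moderated variances with a trend) was run on log2(value + 1) of all transcripts of a table, two-sided, with Benjamini-Hochberg adjustment and calls below 0.05. Each FLAG line was fitted on its own 4 libraries, for estimates and SEs only, and the 8 RNA-seq libraries in 1 fit. The fits were tested on simulated data with 200 changed transcripts. The simulated noise was independent between libraries, so this test does not cover the joint deviation of same-numbered RNA-seq libraries. Replicate numbers were not taken to pair libraries, since no label says what a number marks.

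The transcript, the groups compared and the pseudocount were chosen with earlier results of these data known. Named beside it are the 2 transcripts with the highest r under the stated rule, and 2 picked later, as said there. The planned test in the RPL22 capture had no row to run on. Descriptions and plots used Python 3.11.15, pandas 2.3.3 and matplotlib 3.10.9.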

Additional observations from a re-analysis of the deposited data

How the results depend on the processing

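The RPL10A difference kept its sign in all 11 alternatives and lay between 2.00 and 2.69 with single libraries left out. The RPS25 difference kept its sign too, at 2.58 to 2.87 with single libraries left out. With a pseudocount of 5 the differences were 2.10 (RPL10A) and 2.04 (RPS25), the reverse of their order in the main fit. None of the 74 tested alternatives for the 5 RNA-seq comparisons called uc007fhi.1 (limma adjusted p from 0.372 to 0.995), but the sign turned in 18 of the 84 that gave a value. Knockdown in the heavy pool was −0.31 with a pseudocount of 0.1, −0.11 with medians aligned and −0.47 in libraries numbered 2; heavy minus light with Rpl10a siRNA was 0.0088 with a pseudocount of 5 and 0.056 in libraries numbered 1; knockdown in the light pool was −0.19 in libraries numbered 2. Without single libraries, heavy minus light ran from −1.24 to 1.48 (control siRNA) and from −1.82 to 1.77 (Rpl10a siRNA), knockdown from −1.78 to 1.82 (heavy) and from −1.55 to 1.88 (light), and the shift from −1.94 to 1.65; a group left with 1 library was assumed to vary like the others.

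With a replicate block the SE of the 4 RNA-seq differences fell from 1.53 to 0.23 and that of the shift from 2.17 to 0.33, with the estimates kept at 0.12, −0.03, 0.02, 0.17 and −0.14 and no call (limma adjusted p from 0.649 to 0.942). Same-numbered RNA-seq libraries deviated together, with r of 0.40 to 0.62 across transcripts over the 6 pairs of groups. Over all transcripts the block raised the calls from 495 to 1912 for the light-pool knockdown and from 520 to 2520 for the shift, and leaving out the variance trend lowered them to 260 and 0. Without single libraries they ran from 0 to 987 and from 0 to 2070, and those for the heavy-pool knockdown from 1500 to 4258, against 4000 with all. The fit of all Ribo-Seq libraries over common transcripts and the RPL22 capture could not be run for uc007fhi.1, and the filter at a mean of 10 removes it from the RNA-seq table. Unknown depth limits all values under 1 RPM.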

Other observations

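Of the 19 transcripts with a log2 capture difference of at least 1 in both FLAG lines, a list that includes uc007fhi.1, 18 were in the RNA-seq table. Their RNA-seq replicate 1 minus replicate 2 difference had a median of 0.24, ran from −0.42 to 3.41, was above 0 in 11 and was at least 1 in 4. Among the 7704 transcripts in the 3 tables the median was 0.00, 50.2% were above 0 and 0.545% were at least 1. A difference of at least 1 was thus more frequent among the 18 than among the 7704, though most of the 18 did not reach it. The 4 that did include uc007fhi.1 and the later picked uc008ijz.1 and uc007vde.1. The RPL22 table used here listed 11 of the 19 and 94.0% of the 8090 transcripts in both FLAG tables, and uc007fhi.1, uc008ijz.1 and uc007vde.1 were not among them.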
